A study of Mus musculus with 13 samples.

Results

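A set of 10 genes of cellular cholesterol handling was followed in B16F10 melanoma cells recovered from lung tumours of APOE2 or APOE3 hosts: the nuclear receptors Nr1h2 and Nr1h3, the LXR target genes Abca1, Abcg1, Mylip and Lpcat3, and the storage and lysosomal genes Soat1, Lipa, Npc1 and Npc2. They were chosen by symbol from a written list, with earlier results of these data known. All 10 were found among the 22656 genes of the table. The host mice were knock-ins for APOE2 (8 libraries) or APOE3 (5 libraries), and received 100000 cells of the line B16F10-TR-shApoe through the tail vein. This line is a derivative of the C57BL/6 mouse melanoma B16F10 with a short hairpin that targets the Apoe of the tumour cell; both arms share it, and the labelled difference is the host allele. On day 15 the lungs were digested with collagenase, and TO-PRO-3 low, CD45-, GFP+ cells were sorted for RNA. The labels do not say whether each library came from 1 mouse, so p-values measure only the spread between these libraries.

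The liver X receptors LXRα (Nr1h3) and LXRβ (Nr1h2) are transcription factors that bind oxysterols and, as partners of retinoid X receptors, switch on genes that remove cholesterol from the cell. Their targets include the transporters ABCA1 and ABCG1, which pass cholesterol to apolipoproteins such as apoE and to HDL, the ubiquitin ligase MYLIP (IDOL), which degrades the LDL receptor, and the phospholipid-remodelling enzyme LPCAT3. Cholesterol that arrives in lipoproteins is freed from its esters by lysosomal acid lipase (Lipa), handed by NPC2 to NPC1 for export from the lysosome, and re-esterified for storage by SOAT1.

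The LXR response element is a direct repeat of a hexamer with a spacer, and Abca1 carries the best known one close to its start site. Promoter windows from 250 bases before to 50 after the start were read from RefSeq on GRCm38.p6 for 8 of the 10 genes, all but Abcg1 and Npc1. The windows of the LXR targets Abca1 (chr4:53159846-53160145, minus strand) and Mylip (chr13:45389492-45389791, plus strand) are shown 5′ to 3′. They share a TATA box at almost the same distance from the start, and only the Abca1 window holds a match to the LXR repeat. Bases outside the windows were not searched, so a repeat elsewhere in either gene would be missed. Capitals mark, in Abca1, the E-box CACGTG, a match on the opposite strand to the LXR repeat (GGTNA, then 5 bases of any kind, then GGTCA), and the TATA box TATAAA, and in Mylip the TATA box.
Abca1: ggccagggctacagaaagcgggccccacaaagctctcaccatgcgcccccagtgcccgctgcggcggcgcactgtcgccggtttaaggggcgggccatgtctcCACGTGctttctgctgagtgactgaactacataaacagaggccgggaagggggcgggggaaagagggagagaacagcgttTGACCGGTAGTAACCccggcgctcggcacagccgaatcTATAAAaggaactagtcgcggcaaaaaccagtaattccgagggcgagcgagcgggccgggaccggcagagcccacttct
Mylip: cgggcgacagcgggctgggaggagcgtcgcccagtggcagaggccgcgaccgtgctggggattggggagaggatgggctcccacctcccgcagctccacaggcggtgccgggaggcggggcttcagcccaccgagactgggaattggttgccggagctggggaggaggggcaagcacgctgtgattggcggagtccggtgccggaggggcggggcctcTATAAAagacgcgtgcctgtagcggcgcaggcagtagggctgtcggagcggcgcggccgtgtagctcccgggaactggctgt
The repeat began 67 bases before the start in Abca1, as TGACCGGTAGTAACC, and did not overlap the other marked motifs. Searched on both strands, it was present in 1 of the 8 genes and in 0.207% of the 32851 windows searched. The TATA letters began at −29 in Abca1 and −32 in Mylip, and were present somewhere in 3 of the 8 genes and in 13.6% of the windows searched. The GC box GGGCGG was present in 6 of the 8 genes against 35.7% of windows. The median GC content was 62.7% in the windows of the 8 genes and 52.7% over all windows, and the comparison was not matched for it. The E-box was in 1 of the 8, against 7.15%. These are matches of letters and no measurement of binding.

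Recovered reads ranged from 7080308 to 13039989 per library, and APOE2 libraries averaged 9205501 ± 1743144 (SD, n = 8), APOE3 libraries 7833556 ± 619037 (SD, n = 5) (two-sided exact permutation p = 0.1002). Apoe, the target of the hairpin, averaged 1730 ± 375 in APOE2 and 1845 ± 441 in APOE3 libraries (normalised counts, SD, n = 8 and 5), a log2 difference of −0.088 (exact permutation test, two-sided p = 0.681). Melanocyte identity was plain in every library: the 10 melanocyte markers summed to between 283800 and 515100 normalised counts. The marker lists of lung epithelium, of endothelium and of fibroblasts and smooth muscle had lower means in APOE2 hosts. The lung-epithelium markers (16 genes) summed to 850 to 4262 normalised counts in APOE2 and 3607 to 21660 in APOE3 libraries, and their mean log2 value differed by −1.54 (two-sided exact permutation test, adjusted p = 0.0171 over 6 lists). Of the 14 with a mean of at least 10, 13 had a negative log2 difference and 1 a positive one. Scgb1a1 and Scgb3a2 averaged 157 and 29.8 in APOE2 against 29.5 and 0 in APOE3, with the most in APOE2 replicate 2 (1065 and 179). Hopx, with a mean under 10, averaged 5.51 against 3.21. The endothelial list differed by −1.44 and the fibroblast and smooth muscle list by −1.07 (exact permutation, adjusted p = 0.0117 for each). The macrophage list of 15 genes differed by −0.51 (exact permutation, adjusted p = 0.201). Its sum, 322 to 2424 in APOE2 and 1736 to 12310 in APOE3, was mostly Lyz2, while the macrophage receptor Adgre1 was at 0 in 6 of 8 APOE2 and 3 of 5 APOE3 libraries. The 2 most abundant genes of these lists fell for lung epithelium, where Sftpa1 and Sftpc had log2 differences of −2.32 and −2.23 (limma adjusted p = 0.0191 and 0.0061), and for the macrophage list, where Lyz2 and Cd74 had −2.21 and −2.02 (limma adjusted p = 0.0241 and 0.0302). Of these 4 calls, each was lost without the minimum, without the trend and with the lung-epithelium covariate, where Lyz2 had −0.34 (adjusted p = 0.893). That covariate is a mean that includes Sftpa1 and Sftpc, and the macrophage covariate includes Lyz2 and Cd74. A loss of their calls in those fits is therefore partly built in. Lyz2 and Sftpc were both lowest in APOE2 replicate 3 (186 and 390 normalised counts). Both were highest in APOE3 replicate 4 (11890 and 10970). The part of macrophages and of lung epithelium in the Lyz2 difference was not tested. Cd74 had a larger difference with the lung-epithelium covariate, −2.585, and still did not pass (limma adjusted p = 0.277). Without APOE2 replicate 2 or 5 or APOE3 replicate 3 or 4, Sftpa1, Lyz2 and Cd74 did not pass (adjusted p from 0.0562 to 0.0994), nor did Cd74 without APOE2 replicate 7 or APOE3 replicate 5 (0.0501 and 0.059). Robust limma lost Sftpa1, Sftpc and Lyz2 (0.141, 0.09 and 0.167), the macrophage covariate Sftpa1, Lyz2 and Cd74 (0.0549, 0.0818 and 0.0935), and the replicate block Cd74 (0.105). The most abundant genes of the other lists did not pass in limma: Pmel and Dct had 0.20 and 0.64, Egfl7 and Eng −0.64 and −0.16, Dcn and Fn1 −1.31 and −0.071, and S100a8 and S100a9 −0.035 and 0.50 (limma adjusted p from 0.121 to 0.978). Dct passed with edgeR (adjusted p = 0.0467), DESeq2 (0.00796) and without APOE3 replicate 2 (0.0493), and Egfl7 with DESeq2 (0.0356). The sign of Fn1 and of S100a8 changed in some settings. The leukocyte list without macrophages differed by −0.55 (exact permutation, adjusted p = 0.140), and the melanocyte list by 0.099 (adjusted p = 0.140, same test). In these bulk samples fewer cells of a type and less RNA per cell cannot be told apart.

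Of the 10 genes, 8 had a mean of at least 10 normalised counts and entered the limma fit over all 12403 tested genes. None of the 8 passed a Benjamini-Hochberg adjusted p of 0.05 (0 higher, 0 lower), against 0.79% of all genes tested (51 higher and 47 lower, or 0.411% and 0.379%). Scaling every library to the same total gave 38 higher and 54 lower genes. At an unadjusted p under 0.05 there were 5 of the 8, with 2 higher and 3 lower in APOE2, against 14.2% of all genes (7.51% higher, 6.71% lower). A positive difference was found for 3 of the 8 and for 50.1% of all genes. By edgeR's quasi-likelihood test 0 of the 8 had an adjusted p under 0.05 (1.11% of all genes), and by DESeq2 there was 1, Npc1 (2.51% of all genes). The 3 with lower values were Npc1, Npc2 and Lpcat3, and the 2 with higher values were Abca1 and Lipa. The median log2 difference of the 8 was −0.01, beside 0.00037 over all genes tested.

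**Figure D1:**
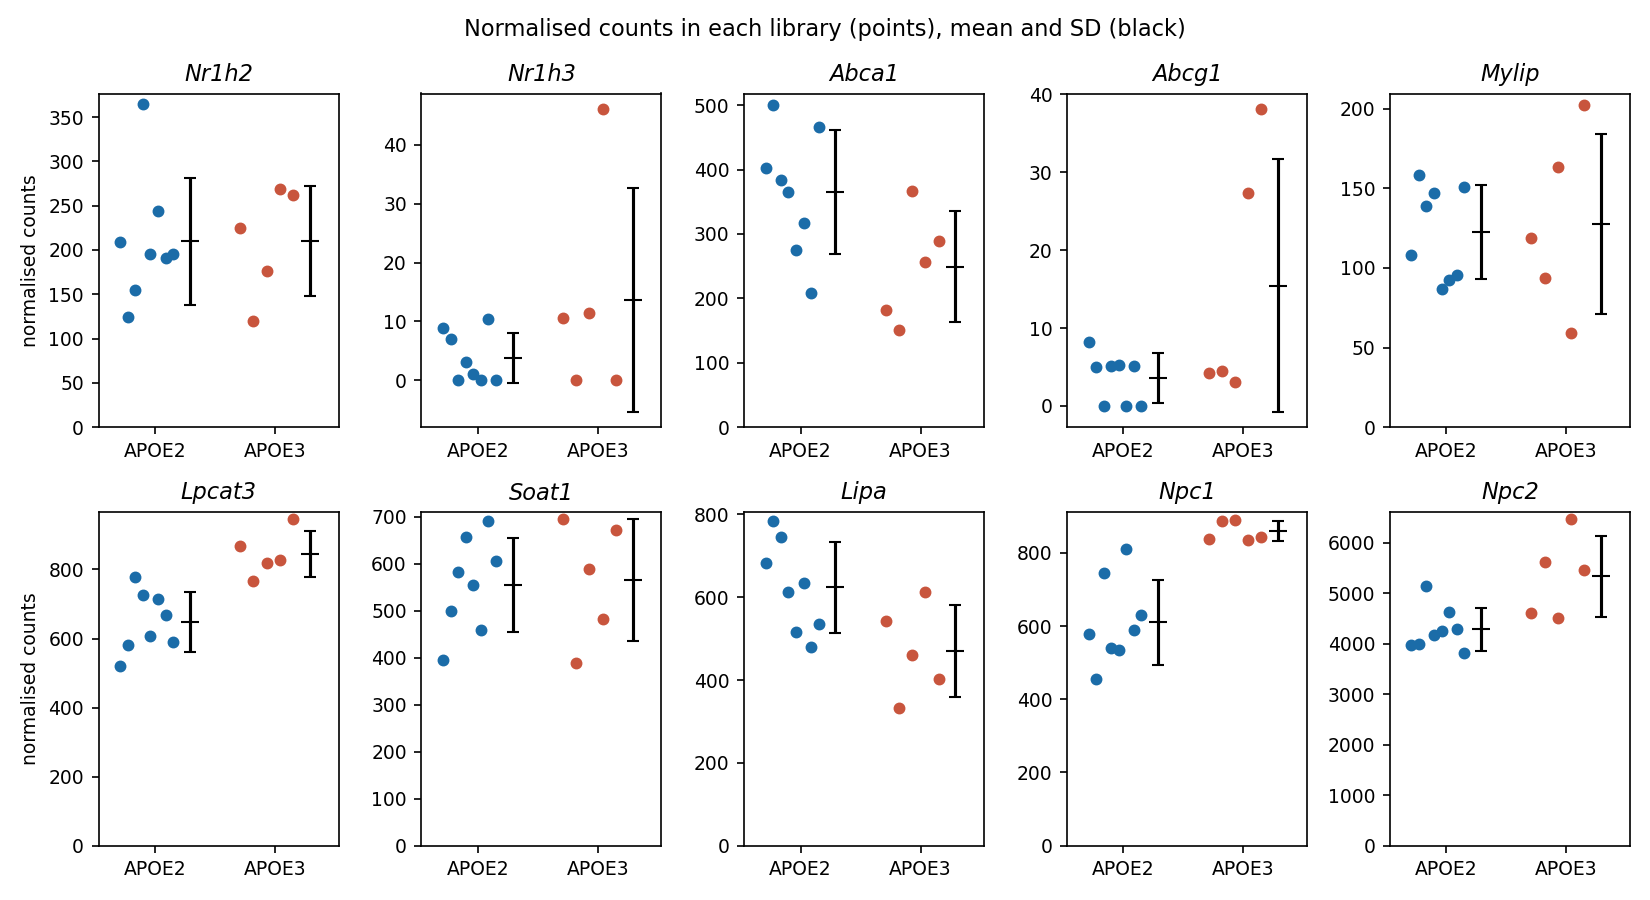
Normalised counts (y axis) of each of the 10 genes in the 8 APOE2 and 5 APOE3 libraries (points), with the group mean and SD in black; every axis includes 0. Npc1 is the gene whose groups do not overlap, with APOE2 libraries at 454 to 812 and APOE3 libraries at 835 to 890.

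Among the receptors, Nr1h2 was the form detected in every library. Nr1h2 (ENSMUSG00000060601, GRCm38 chr7:44549616-44553951) had 124 normalised counts in the lowest APOE2 library, a median of 196 and 364 in the highest. In APOE3 hosts replicates 1 to 5 had 224, 120, 176, 268 and 261 normalised counts. The groups overlapped throughout, with means of 210 ± 71.8 (SD, n = 8) and 210 ± 62.4 (SD, n = 5), and APOE2 replicate 4 held the highest value of all. The log2 difference was −0.0063 with a 95% interval of −0.49 to 0.48 (limma adjusted p = 0.994), so a difference of up to about that size in either direction is compatible with these libraries.

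Nr1h3 (ENSMUSG00000002108, chr2:91184061-91202834) lay below the minimum. It had 0 reads in 3 of 8 APOE2 and 2 of 5 APOE3 libraries, and 10.4 normalised counts in the highest APOE2 library. The APOE3 libraries had 10.5, 0, 11.4, 46.1 and 0 normalised counts, so 1 library, APOE3 replicate 4, held 49 of the 70 APOE3 reads. That library also had the highest Sftpc and Lyz2 values of all, at 10970 and 11890 normalised counts, and the myeloid integrin gene Itgax was also highest there, at 38.6. The other macrophage markers did not point one way in that library. Csf1r had 29.2 normalised counts, second to APOE3 replicate 2. Cd74 (138), Fabp4 (38.6), Chil3 (75.31), Tyrobp (37.65) and Ptprc (11.3) were also among the higher values of the 13 libraries. Cd68 had 10.4, the lowest of the 13 libraries, Fcer1g had 41.42 and Mrc1 had 0.941. Adgre1, Marco, Mpeg1 and Ear2 had 0. The part of these cells in the Nr1h3 value was not tested. As a share of the reads of both receptors, Nr1h3 was 1.97% over the APOE2 libraries (36 of 1827 reads, exact binomial 95% interval 1.38% to 2.72%) and 6.55% over the APOE3 libraries (70 of 1069, 5.14% to 8.20%); the intervals cover counting error only. Per library the share averaged 2.0% ± 2.42 (SD, n = 8) and 5.05% ± 6.02 (SD, n = 5), a difference of −3.06 percentage points, which was −0.652 without APOE3 replicate 4. The SD of the APOE3 libraries was larger than this difference and that of the APOE2 libraries was smaller; no test was made.

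The efflux transporters gave 1 gene with ample reads and 1 near the floor. Abca1 (ENSMUSG00000015243, chr4:53030787-53159895), which loads cholesterol and phospholipid onto lipid-poor apolipoproteins, had 209 normalised counts in the lowest APOE2 library, a median of 374 and 501 in the highest. In APOE3 hosts the values were 182, 151, 367, 256 and 289 normalised counts. Abca1 was higher in APOE2 on average, at 365 ± 96.5 (SD, n = 8) against 249 ± 86.1 (SD, n = 5), and 7 of 8 APOE2 libraries lay above the APOE3 median, but the groups overlapped: 4 APOE2 libraries lay above every APOE3 library and 2 APOE3 libraries lay below every APOE2 library. The fold was 1.49 (95% interval 1.09 to 2.03), the log2 difference 0.57 ± 0.22 (SE) and the limma p 0.0154, with an adjusted p of 0.233. The interval of this single comparison leaves out 0, and the gene did not pass the correction over all genes.

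Abcg1 (ENSMUSG00000024030, chr17:31057675-31117988), which passes cholesterol to mature HDL, also lay below the minimum. It had 0 reads in 3 of 8 APOE2 libraries and at most 8.18 normalised counts in that group. APOE3 replicates 1 to 5 had 4.21, 4.52, 3.12, 27.3 and 38.2 normalised counts. Replicates 4 and 5 of APOE3 stood above the other 11 libraries. A count of 3 reads equals 2.04 to 3.47 normalised counts over the 13 libraries. In a fit without the minimum the log2 difference was −1.69 with a 95% interval of −3.54 to 0.16 (limma adjusted p = 0.556), a value that depends on the pseudocount. The direction of the Abcg1 average was thus opposite to that of Abca1, and neither passed the test.

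Of the remaining LXR targets, Mylip did not separate the genotypes and Lpcat3 was lower in APOE2. Mylip (ENSMUSG00000038175, chr13:45389742-45412022) had 86.6 to 158 normalised counts in APOE2, with a median of 124, and 119, 93.8, 163, 59.3 and 202 in APOE3. Both the highest and the lowest of the 13 values were in APOE3 libraries. Its log2 difference was 0.026 with a 95% interval of −0.54 to 0.59 (limma adjusted p = 0.979), and its sign changed under 6 of the 14 other settings tried and 6 of the 13 fits without 1 library.

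Lpcat3 (ENSMUSG00000004270, chr6:124663027-124704418), which inserts polyunsaturated fatty acids into membrane phospholipids, had 520 normalised counts in the lowest APOE2 library, a median of 637 and 777 in the highest. Values in APOE3 were 867, 766, 820, 827 and 945 normalised counts. All 8 APOE2 libraries lay below the APOE3 median, and 7 lay below every APOE3 library; APOE2 replicate 3 just reached past the lowest, APOE3 replicate 2. The fold was 0.763 (95% interval 0.641 to 0.908), with a log2 difference of −0.39 ± 0.12 (SE), a limma p of 0.00382 and an adjusted p of 0.139. Exons of Lpcat3 overlap those of Emg1 on the opposite strand, and the strand setting of the counting is not given in the sources used here, so reads could have been assigned to either gene. Emg1 had 2463 ± 434 normalised counts (SD, n = 8) against 2236 ± 779 (SD, n = 5), a log2 difference of 0.21 (limma adjusted p = 0.632).

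**Figure D2:**
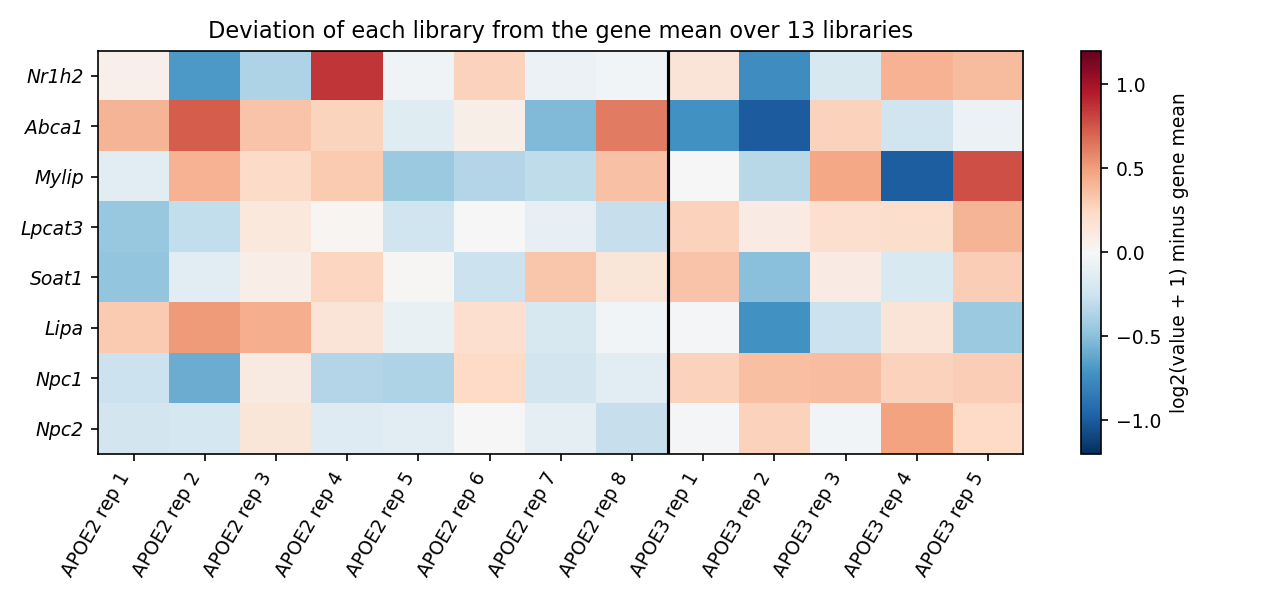
Deviation of each library from the gene's mean over 13 libraries, as log2(value + 1), for the 8 genes past the minimum (rows); the black line divides APOE2 from APOE3 libraries (columns). Npc1 is above its mean in all 5 APOE3 libraries, while APOE2 replicate 2 is lowest for Npc1 and highest for Abca1 and Lipa.

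The 4 genes of storage and lysosomal export did not move together. Lipa was higher in APOE2, Npc1 and Npc2 were lower, and Soat1 did not differ beyond its spread; none passed the adjusted threshold. Soat1 (ENSMUSG00000026600, chr1:156424525-156474331), the enzyme that esterifies cholesterol for lipid droplets, had 395 to 691 normalised counts in APOE2, with a median of 567, and 694, 388, 588, 482 and 672 in APOE3. Its log2 difference was −0.014 with a 95% interval of −0.34 to 0.32 (limma adjusted p = 0.981). The groups covered the same range, and 1 APOE3 library exceeded every APOE2 library.

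Lipa (ENSMUSG00000024781, chr19:34492318-34527474) had 480 normalised counts in the lowest APOE2 library, a median of 623 and 783 in the highest. The APOE3 libraries had 543, 332, 460, 612 and 403 normalised counts. All 8 APOE2 libraries were above the APOE3 median, 5 were above every APOE3 library, and 3 of the APOE3 libraries were below every APOE2 library. The fold was 1.34 (95% interval 1.07 to 1.68), with a log2 difference of 0.42 ± 0.16 (SE), a limma p of 0.0132 and an adjusted p of 0.220.

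Npc1 (ENSMUSG00000024413, chr18:12189692-12236400), the membrane protein that moves cholesterol out of the lysosome, had the smallest p-value of the 8. The lowest APOE2 library had 454 normalised counts, the median was 584 and the highest had 812. In APOE3 hosts the values were 837, 887, 890, 835 and 843 normalised counts. Every APOE2 library was below every APOE3 library, which held for 1 of the 8 genes in either direction and for 0.984% of all genes tested (0.508% with APOE2 lower, 0.476% with APOE2 higher). The means were 610 ± 117 (SD, n = 8) and 859 ± 27.4 (SD, n = 5), a fold of 0.700 (95% interval 0.579 to 0.847). The log2 difference was −0.51 ± 0.13 (SE), with a limma p of 0.000757, rank 139 of 12403 genes, and an adjusted p of 0.0675.

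The APOE3 libraries of Npc1 were close together. Their coefficient of variation was 3.20%, against 3.51% from counting alone and a median of 19.4% for the 1073 genes with a mean within 1.25-fold of it. In APOE2 libraries it was 19.2%, beside a median of 14.1% for the same genes. Npc1 passed in 3 of 27 other settings, with an adjusted p of 0.0216 by DESeq2, 0.0417 by limma with array weights (0.806% of all genes passed) and 0.0326 without APOE2 replicate 6 (0.887% of all genes passed), the highest APOE2 library. The adjusted p was 0.409 with the lung-epithelium markers in the model, and edgeR gave 0.0757. Exons of Npc1 overlap those of Rmc1 and Gm15956 on the opposite strand; Rmc1 had 78.6 ± 26.1 normalised counts (SD, n = 8) against 85.2 ± 52.4 (SD, n = 5).

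Npc2 (ENSMUSG00000021242, chr12:84754562-84773152), the soluble lysosomal partner of NPC1, had 3818 normalised counts in the lowest APOE2 library, a median of 4210 and 5137 in the highest. APOE3 replicates 1 to 5 had 4600, 5627, 4520, 6478 and 5457 normalised counts. All 8 APOE2 libraries were below the APOE3 median and 6 were below every APOE3 library, but APOE2 replicates 3 and 6 lay among the APOE3 values. The fold was 0.807 (95% interval 0.692 to 0.942), with a log2 difference of −0.31 ± 0.11 (SE), a limma p of 0.00856 and an adjusted p of 0.191.

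**Figure D3:**
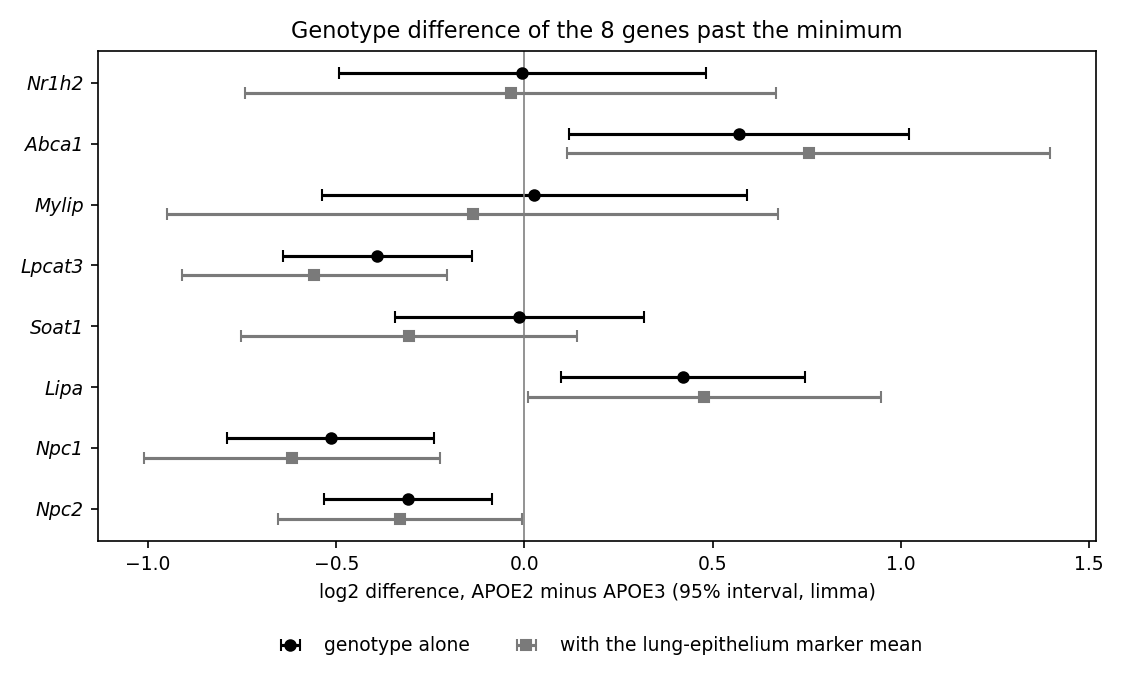
Log2 difference, APOE2 minus APOE3 (x axis), with its 95% interval for the 8 genes past the minimum, from limma with genotype alone (black circles) and with the mean of the lung-epithelium markers added (grey squares). The intervals of Abca1, Lpcat3, Lipa, Npc1 and Npc2 leave out 0 in both fits, and the intervals with the markers are wider.

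Because lung-epithelium markers differed between the groups, the 8 genes were also fitted with the mean of those markers as a covariate. The log2 differences of the 5 genes at an unadjusted p under 0.05 kept their sign and were at least as large. They were −0.62 for Npc1, −0.56 for Lpcat3, −0.33 for Npc2, 0.48 for Lipa and 0.76 for Abca1. The covariate shares its variation with genotype, the intervals widened, and limma adjusted p-values ran from 0.395 to 0.698 for these 5 genes; 0.0161% of all genes passed in that fit. With the macrophage markers as covariate the 5 values ran from −0.56 for Npc1 to 0.51 for Abca1. The interval of Lipa then included 0 (log2 difference 0.35, 95% interval −0.0018 to 0.70), and those of the other 4 did not.

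**Figure D4:**
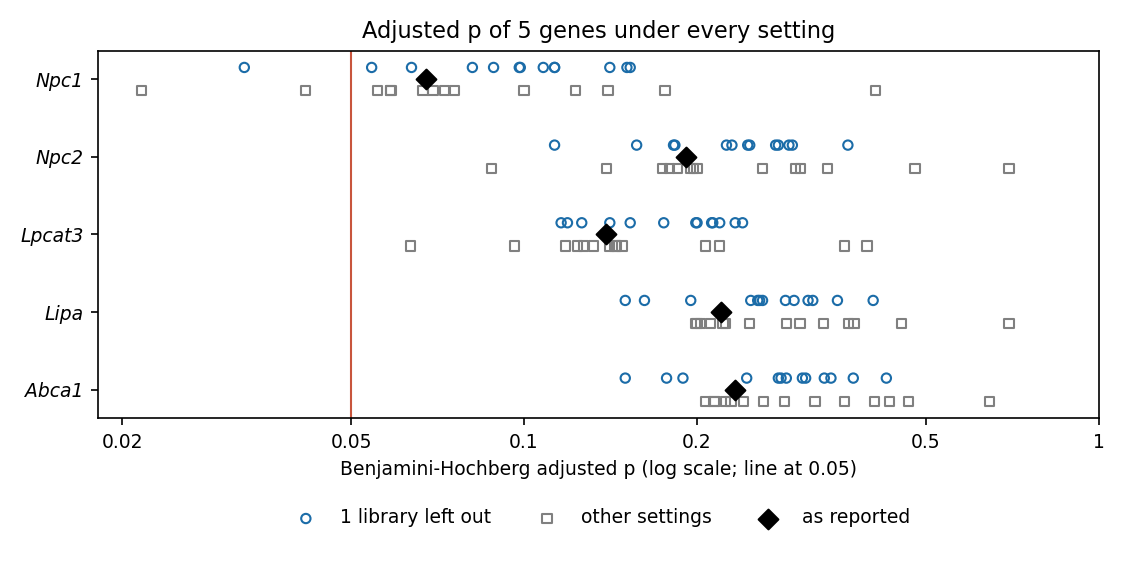
Adjusted p (x axis, log scale) of Npc1, Npc2, Lpcat3, Lipa and Abca1 as reported (black diamonds), with 1 library left out (blue circles) and under the other settings (grey squares); the red line is 0.05. Npc1 lies left of the line in 3 of 27 settings, and the other 4 genes stay right of it in all of theirs.

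Within a library, a ratio of 2 genes does not depend on scaling. The ratio of Lipa to Npc1 normalised counts was chosen after the values were seen and is given without a test. It ran from 0.780 to 1.72 in APOE2, with a median of 0.984, and was 0.648, 0.374, 0.517, 0.733 and 0.477 in APOE3. Every APOE2 library was above every APOE3 library. Npc1 alone already separated the groups, and how often other gene pairs separate them was not tested. The ratio of Npc2 to Npc1, also chosen after the values were seen, overlapped, at 5.70 to 8.82 in APOE2 and 5.08 to 7.76 in APOE3. Abca1 over Npc1 overlapped as well, with a lowest APOE2 library at 0.354 and a highest APOE3 library at 0.413. For Lipa over Soat1, which overlapped too, these libraries stood at 0.694 and 1.27.

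Other genes of the same pathway were taken from written lists, also chosen with earlier results of these data known. Of the LXR partners and coregulators, 13 of 14 passed the minimum, and 0 had a limma adjusted p under 0.05 (0 also at an unadjusted p under 0.05); the median log2 difference was −0.11. The 3 most abundant were the corepressor Ncor1 (1607 ± 120 normalised counts in APOE2 against 1747 ± 243 in APOE3, SD), and the corepressor subunits Tbl1x (428 ± 82.0 against 411 ± 94.3) and Tbl1xr1 (432 ± 118 against 412 ± 44.0). Their log2 differences were −0.11, 0.068 and 0.036, and their ranges overlapped between the groups (limma adjusted p from 0.679 to 0.949).

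Among 16 other LXR targets 14 were in the table and 10 passed the minimum; 2 fell in APOE2 hosts and 0 rose, against 0.379% and 0.411% of all genes tested. The median log2 difference was −0.0063. Scd1, which makes monounsaturated fatty acids, fell from 1563 ± 503 normalised counts (SD, n = 5) in APOE3 to 852 ± 121 (SD, n = 8) in APOE2, a log2 difference of −0.83 ± 0.16 (SE) with a limma adjusted p of 0.0175. Values in APOE3 were 1198, 1538, 1747, 2307 and 1025 normalised counts, and the APOE2 libraries 689 to 1057, so the groups overlapped at APOE3 replicate 5. Pltp, the phospholipid transfer protein, fell from 86.1 ± 37.8 to 21.6 ± 11.7 normalised counts (SD), a log2 difference of −2.04 ± 0.46 (SE) with a limma adjusted p of 0.0349. Its APOE3 libraries had 49.5, 53.1, 77.0, 118 and 133 normalised counts, all above the APOE2 libraries at 7.35 to 39.1.

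The mean of the lung-epithelium markers was also lower in APOE2. Sftpc had 390 to 2070 normalised counts in APOE2 and 1585, 3965, 6699, 10970 and 6530 in APOE3. Scd1 and Sftpc were both highest in APOE3 replicate 4 and, within APOE2, in replicate 7 (1057 and 2070 normalised counts). In APOE3 replicates 1 to 4 they rose in the same order. APOE3 replicate 5 had the lowest APOE3 value of Scd1 with Sftpc at 6530, and APOE2 replicate 5 the highest APOE2 value of Pltp with Sftpc at 598. The part of lung-cell RNA in the Scd1 and Pltp differences was not tested. With those markers in the model the log2 difference was −0.62 for Scd1 and −1.56 for Pltp, and neither passed (limma adjusted p = 0.543 and 0.658). Without 1 library in turn the log2 difference ran from −0.97 to −0.67 for Scd1 and from −2.20 to −1.85 for Pltp (13 fits each). Scd1 lost its call without APOE2 replicate 2 or 5 or APOE3 replicate 3 or 4 (adjusted p from 0.0502 to 0.065). Pltp lost it without APOE2 replicate 1, 2, 5 or 8 or APOE3 replicate 3, 4 or 5 (0.0514 to 0.0966). Both genes also lost it without the minimum (adjusted p = 0.0696 for Scd1 and 0.12 for Pltp), without the trend (0.127 and 0.105) and with the macrophage covariate (0.0501 and 0.132). Pltp further lost it with the replicate block (0.127) and with array weights (0.0556). The other named targets did not pass: Scd2 had a log2 difference of 0.076 (limma adjusted p = 0.864) and Fasn, the fatty acid synthase, −0.33 (adjusted p = 0.171).

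**Figure D5:**
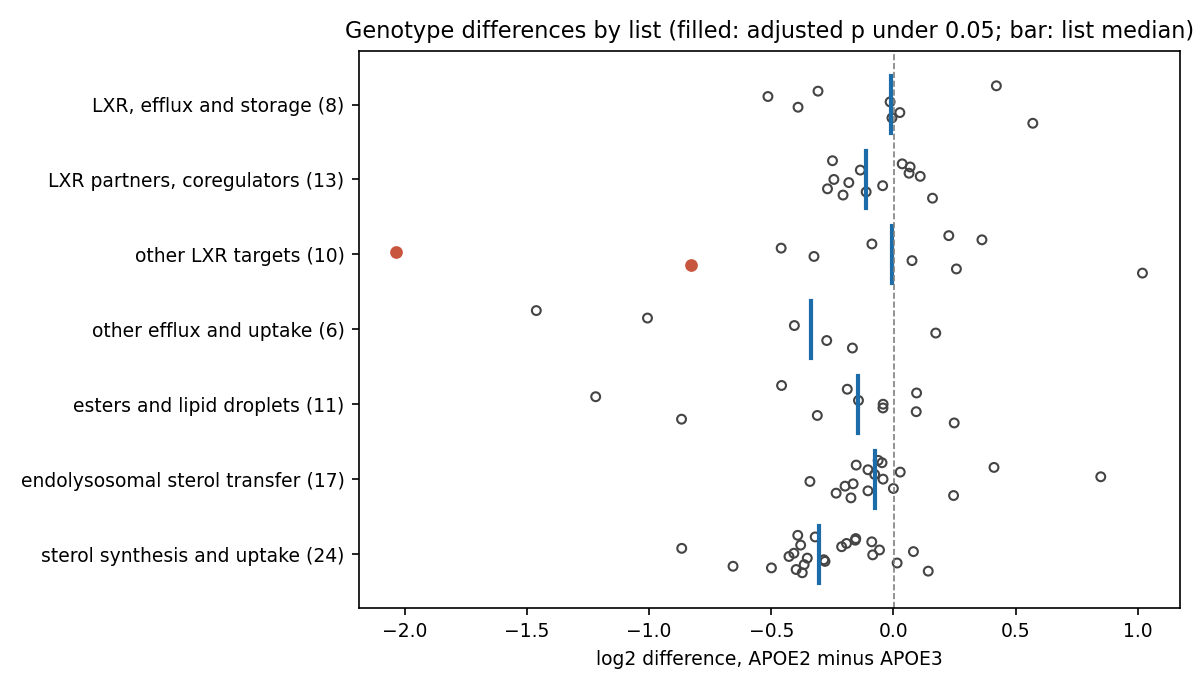
Log2 difference, APOE2 minus APOE3 (x axis), of each gene past the minimum in the list of 10 genes and in 6 other lists (rows, number of genes in brackets); filled points passed the adjusted threshold, blue bars are list medians and the dashed line is the median of all genes. The filled points are Pltp at −2.04 and Scd1 at −0.83.

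The enzymes that make or clear oxysterols, the ligands of LXR, were near the floor: 0 of 7 passed the minimum, and the 3 most abundant, Cyp46a1, Hsd3b7 and Ch25h, averaged 2.42 to 3.16 normalised counts in APOE2 and 1.94 to 2.66 in APOE3. Of 8 other efflux and uptake genes 6 passed the minimum and 0 passed the adjusted threshold in limma, where 0.79% of all genes did (3 were lower at an unadjusted p under 0.05, against 6.71% of all genes), with a median log2 difference of −0.34. The HDL receptor Scarb1 had 636 ± 115 against 842 ± 143 normalised counts (SD; log2 difference −0.41, limma adjusted p = 0.206), and Cav1, the caveolar coat protein that endothelial and alveolar cells also make, 125 ± 51.9 against 252 ± 93.3 (−1.01, adjusted p = 0.0860). Cav1 passed with DESeq2 (adjusted p = 0.0231), without APOE2 replicate 4 (0.0367) and without APOE3 replicate 1 (0.0224). Abca2, a transporter of the lysosomal membrane, had a log2 difference of −0.17 (adjusted p = 0.774).

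Of 17 genes for cholesterol esters and lipid droplets 11 passed the minimum, and 0 passed the adjusted threshold in limma (1 lower at an unadjusted p under 0.05, against 6.71% of all genes), with a median log2 difference of −0.14. Nceh1, which hydrolyses cholesterol esters outside the lysosome, had a log2 difference of 0.25 (95% interval −0.071 to 0.57, limma adjusted p = 0.483), and the droplet coat gene Plin3 and the acyl-CoA synthetase Acsl3 had −0.042 and 0.094. All 17 genes of endolysosomal sterol transfer passed the minimum, and 0 passed the adjusted threshold (1 higher and 1 lower at an unadjusted p under 0.05, against 14.2% of all genes in either direction), with a median of −0.077. The lysosomal membrane genes Lamp1 and Lamp2 differed by −0.10 (95% interval −0.32 to 0.11) and −0.00042 (−0.21 to 0.21), and the contact-site gene Vapa by −0.047. Their difference from Npc1 and Npc2 was not tested.

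Sterol synthesis and uptake genes, which the SREBP factors switch on when cell cholesterol is low, were compared because LXR and SREBP respond to sterols in opposite ways. Of 24 past the minimum, 0 passed the adjusted threshold in limma, 8 were lower and 0 higher at an unadjusted p under 0.05 (6.71% and 7.51% of all genes tested), and the median log2 difference was −0.30. Hmgcs1, an early enzyme of the pathway, had 1183 ± 230 against 1550 ± 407 normalised counts (SD; log2 difference −0.37, limma adjusted p = 0.307). Cyp51 and Msmo1, later enzymes, had −0.057 and −0.21 (adjusted p = 0.885 and 0.50).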

How the data were processed

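The values deposited by the authors are normalised counts, a signal equal to reads divided by a library size factor, for 22656 genes in 13 libraries. The submitters' processing notes name STAR 2.6.0, featureCounts, DESeq2 1.28.1 and the build mm10. Libraries were made with a forward QuantSeq kit, per the labels' protocols, which reads transcript ends next to the poly(A) tail; the annotation and strand setting are not given in the sources used here. In every column 100% of nonzero values were whole multiples of 1 step (tolerance 1e-06), and division by it gave the reads used for totals, edgeR and DESeq2. Symbols came from GENCODE M21 (GRCm38; 22649 identifiers matched, 7 did not), coordinates from the same annotation, promoter windows from RefSeq (GRCm38.p6). Values were transformed as log2(value + 1), which understates changes of low genes, and genes with a mean of at least 10 were tested with limma 3.58.1 in R 4.3.3 (trend, two-sided, Benjamini-Hochberg, threshold 0.05). Intervals are limma's 95% intervals, unadjusted. Marker lists, Apoe and totals used two-sided exact permutation tests over 1287 splits, with a smallest p of 0.000777. Alternatives were pseudocounts of 0.5 and 5, no minimum and a minimum of 50, equal totals, TMM, limma without trend, robust or with array weights, edgeR 4.0.16, DESeq2 1.42.0, a replicate block, marker covariates and leaving out each library. The limma step was tested on simulated data. The genes and lists were chosen with earlier results of these data known. Genes named beside the 10 are Apoe, the 3 most abundant members and every member past the threshold in each pathway list, and the 2 most abundant markers of each marker list. Outside this rule, Emg1, Rmc1 and Gm15956 are named as overlapping genes. Itgax, Csf1r, Cd68, Mrc1, Adgre1, Marco, Mpeg1, Chil3, Fabp4, Tyrobp, Ptprc, Fcer1g, Ear2, Scgb1a1, Scgb3a2 and Hopx were chosen after their values were seen.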

Additional observations from a re-analysis of the deposited data

Results flagged for a closer look

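Dixon's criterion was used to look for single libraries far from the rest of their genotype. In 36 screens 2 values stood apart, where chance flags about 1 in 20 groups. Nr1h3 had 46.1 normalised counts in APOE3 replicate 4, and the next APOE3 library had 11.4. Total reads were 13040000 in APOE2 replicate 1, and the next APOE2 library had 9783625. Without that library the log2 difference was −0.51 for Npc1 and 0.54 for Abca1, and neither passed (limma adjusted p = 0.113 and 0.333).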

How the results depend on the processing

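Over all genes 51 were higher and 47 lower in APOE2. Limma without the trend called 0 and 0, the fit without a minimum 5 and 4, DESeq2 153 and 158, the lung-epithelium covariate 1 and 1 and the macrophage covariate 26 and 13. A pseudocount of 5 called 73 lower genes and edgeR 77. Leaving out 1 library gave 5 to 131 higher and 4 to 97 lower genes. Of the 10 genes, 0 were called higher in any setting. The number called was 1 with array weights and 1 with DESeq2, and 0 to 1 with a library left out; the gene was Npc1 each time. The cause of these shifts was not tested.

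The replicate numbers showed no sign of pairing in a check of APOE2 replicates 1 to 5 against the 5 APOE3 libraries. The correlation of same-numbered deviations ran from −0.0628 to 0.0141. Among these APOE2 replicates, 0 of 5 APOE3 libraries correlated best with their own number. With the replicate number as a block 17 genes were higher and 26 lower, and 0 of the 10 genes passed. APOE2 replicates 6 to 8 had no APOE3 library of the same number, so they did not inform the genotype difference in that fit.

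In the 216 comparisons of the 8 genes with a setting, 187 kept direction and call, 3 gained a call (Npc1) and 26 changed sign, all for Nr1h2, Mylip and Soat1, whose differences were near 0. Nr1h2 was 0.0019 with TMM, 0.0062 with edgeR and −0.19 to 0.097 without 1 library. Mylip was −0.014 with equal totals, −0.11 with array weights, −0.050 with edgeR, −0.058 with DESeq2, −0.14 and −0.090 with the lung-epithelium and macrophage covariates, and −0.22 to 0.22 without 1 library. Soat1 ran from −0.14 to 0.069 without 1 library. Among the other named genes, the lung-epithelium covariate gave 0.042 for Ncor1, −0.12 for Tbl1x, −0.23 for Tbl1xr1, −0.12 for Scd2, 0.012 for Abca2, 0.064 for Plin3 and −0.057 for Acsl3. The macrophage covariate gave −0.052 for Tbl1x and −0.018 for Tbl1xr1. Array weights gave −0.025 for Tbl1xr1, 0.018 for Apoe and 0.0042 for Plin3, and equal totals −0.0048 for Tbl1xr1. The replicate block gave 0.052 for Abca2 and 0.0096 for Lamp2, for which TMM gave 0.0078 and edgeR 0.0046. Without 1 library the ranges were −0.064 to 0.17 for Tbl1x, −0.066 to 0.098 for Tbl1xr1, −0.084 to 0.21 for Scd2, −0.24 to 0.011 for Apoe, −0.10 to 0.058 for Plin3, −0.062 to 0.048 for Lamp2, −0.12 to 0.013 for Vapa, −0.15 to 0.0017 for Cyp51, −0.39 to 0.20 for Fn1 and −0.19 to 0.20 for S100a8. Fn1 was 0.099 with array weights and 0.16 and 0.065 with the lung-epithelium and macrophage covariates. S100a8 was 0.067 with edgeR, 0.058 with DESeq2, 0.081 with the block and 0.012 with the macrophage covariate.

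Marker differences without 1 library ran from −1.80 to −1.35 for lung epithelium and −1.29 to −0.764 for fibroblasts and smooth muscle, both past the threshold in all but the comparison without APOE3 replicate 4. They ran from 0.0593 to 0.152 for melanocytes (past it without APOE3 replicate 2) and −0.708 to −0.372 for other leukocytes (past it without APOE2 replicate 1). The difference in total reads ran from 824200 to 1646000. Counting error was 1.41% to 9.20% of the mean for the 8 tested genes, below their spread between libraries except for Npc1 in APOE3, and 26.2% to 49.2% for Abcg1 and Nr1h3.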
